A study of Mus musculus with 5 samples.

Results

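The collagen gene family was examined in retinas of mouse pups at postnatal day 7. Its members were the protein-coding genes of the deposited count table whose symbol has the form Col, a number, the letter a and a number. The table held 44 of them among 43432 gene IDs, on 15 chromosomes. The series comprised poly(A) RNA libraries from 2 labelled groups, 2 libraries labelled Mettl14 cko (a and b) and 3 control libraries (a, b and c). The abbreviation cko commonly denotes a conditional knockout. The name of the deposited table also carries Six3, M3 and M14, which the labels do not explain, and the sources used here do not give the driver line, the alleles, the strain, the genotype of the controls or the number of pups behind a library. Nothing in the labels says that the libraries came from separate animals, so the p-values measure the spread between these libraries, which may be technical.

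Collagens are proteins of 3 chains wound into a triple helix, with glycine at regular intervals along each chain. Fibrillar collagens form the cables of skin, bone, sclera, cartilage and vitreous, FACIT collagens (fibril-associated collagens with interrupted triple helices) sit on the surface of those fibrils, and type IV collagen forms the network of basement membranes. In the eye, type II and IX collagen are chief components of the vitreous, type IV and XVIII collagen belong to the inner limiting membrane and to vessel walls, and type VIII collagen builds the hexagonal lattice of the corneal Descemet's membrane. Neurons of the retina itself are set in little fibrillar matrix, and the type I and III fibrils of the eye lie mainly in sclera, choroid and cornea.

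Total gene counts were 25912136 and 26513127 in libraries labelled cko a and b, and 24315693 to 27100918 in the controls. Mettl14, the RNA-binding partner of the m6A methyltransferase Mettl3, was at 55.6 and 44.8 CPM (reads of a gene relative to all gene counts of its library, scaled between libraries) in the libraries labelled cko and at 38.7 to 46.7 CPM in the controls (log2 fold change 0.25, SE 0.20). Mettl3 itself was at 65.6 and 52.0 CPM against 66.0 to 72.4 CPM (log2 fold change -0.25, SE 0.19). The data thus show no lower Mettl14 level in the group named for it. All directions given for the cko group are therefore those of the libraries so labelled.

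The family made up a small part of the retinal transcripts. It held 0.0389% and 0.0703% of all counts in libraries labelled cko a and b, against 0.0587%, 0.0667% and 0.0681% in control a, b and c. Its summed level was 397 and 657 CPM in libraries labelled cko a and b, against 592, 647 and 732 CPM in the controls. The library labelled cko a was the lowest of the 5 on both measures, while cko b had the highest share of counts and a summed level between those of the controls.

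Levels between genes were compared per length, as CPM per kb of merged exon. This length joins the exons of all annotated transcripts of a gene and can exceed that of the transcript present. Orders of genes and ratios between them depend on it. On that scale the 10 highest members held 76.7% of the family's summed level and the 3 highest held 41.6%. The vitreous collagens led the order, with means over the 5 libraries of 14.9 CPM per kb for Col9a1, 13.7 for Col2a1 and 11.4 for Col9a3. Col6a1, a chain of the beaded filaments of type VI collagen, followed at 6.46 CPM per kb. The membrane-spanning collagens Col17a1, a hemidesmosome component, and Col23a1 were at 6.36 and 6.19 CPM per kb. Col8a2 (4.12), Col18a1, the source of endostatin (3.95), Col8a1 (3.36) and Col9a2 (3.22) completed the leading 10. Over the libraries Col2a1 ranged from 5.56 to 20.6 CPM per kb, Col9a1 from 10.7 to 24.1 and Col9a3 from 6.65 to 19.2. These ranges overlapped, although within each of the 5 libraries Col9a1 was above Col9a3, by 1.09 to 1.6 times. At the other end, 6 members were under 0.1 CPM per kb, among them Col10a1, the collagen of hypertrophic cartilage, and Col6a6, which were the 2 members too low to be tested.

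**Figure D1:**
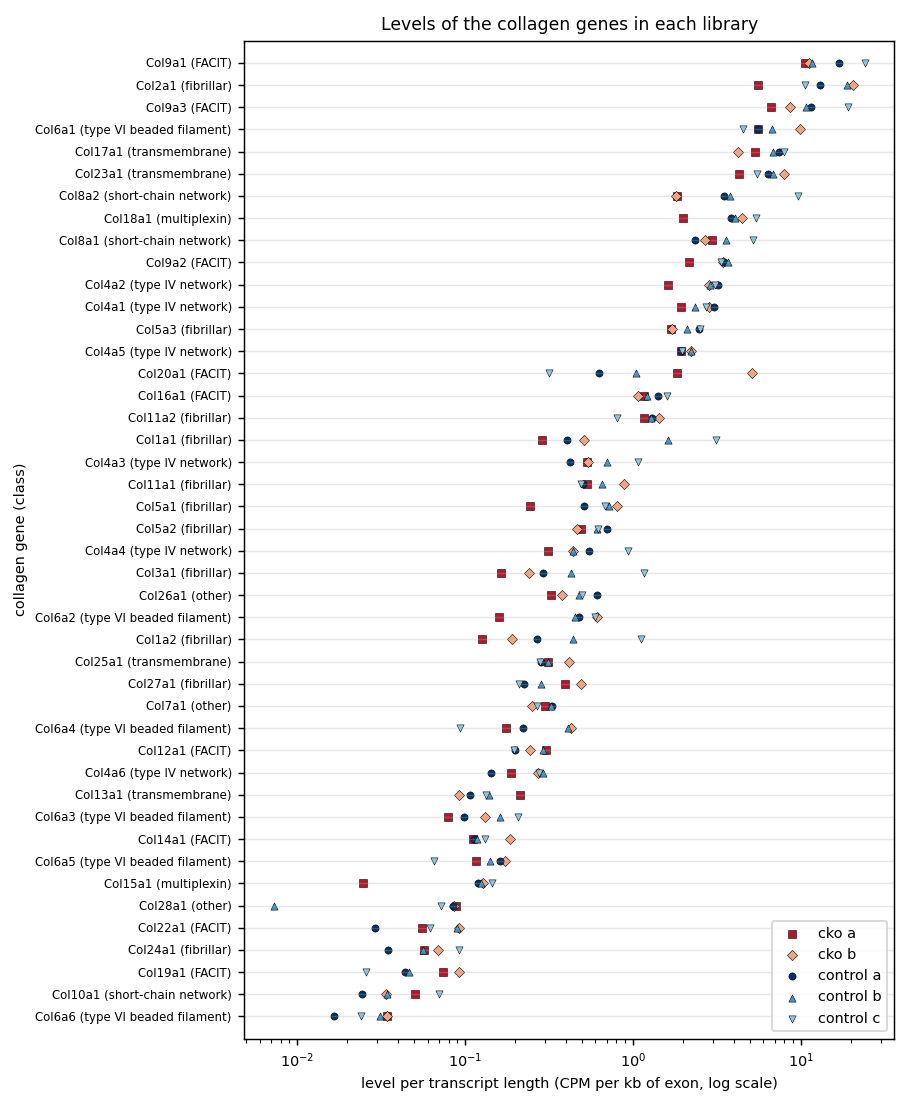
Level of each of the 44 collagen genes per length of merged exon (CPM per kb, log scale) in the 2 libraries labelled cko and the 3 control libraries, ordered by the mean over the 5 libraries. Col9a1, Col2a1 and Col9a3 lead the order, and Col10a1 and Col6a6 are at its foot.

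Genes whose counts were high enough in either group were tested with edgeR's quasi-likelihood test. Of the 42 members that passed this filter, 0 were called over all 17039 genes tested at an adjusted p under 0.05, where 0.0998% of all genes were called, 0.00587% higher and 0.0939% lower. At an unadjusted p under 0.05 there were 9 members, 7 lower and 2 higher in the libraries labelled cko, that is 21.4% of the members tested against 10.8% of all genes tested (5.36% lower and 5.45% higher). The groups did not overlap for 11 members that were lower in the libraries labelled cko and 5 that were higher, 26.2% and 11.9% of the members, against 13.7% and 15.8% of all genes tested. The median log2 fold change (libraries labelled cko over controls) was -0.23 over the members and -0.01 over all genes tested. Over all genes in the highest of 4 equal classes of G and C content, which held 24 of the 42 members, it was -0.22. Of the members, 26 had a value below 0, 61.9% against 50.9% of all genes tested. Limma-voom also called 0 members over all genes (0.0939% of all genes called). DESeq2, which called 0.525% of genes, called Col20a1, Col8a2 and Col1a2. EdgeR with no low-count filter called these and Col1a1, Col3a1 and Col9a3, with 0.981% of genes called. By class, the median log2 fold change was -0.28 over 11 fibrillar genes, 0.24 over 9 FACIT genes, -0.32 over 6 type IV genes, 0.23 over 5 type VI genes and 0.12 over 4 membrane-spanning genes. It was -1.01 over the 2 tested short-chain genes (Col8a1 and Col8a2), -0.60 over the 2 multiplexins and -0.17 over the 3 other genes. In bulk tissue a lower level may stand for fewer cells of a type or for less RNA in each of them, and these cannot be told apart.

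**Figure D2:**
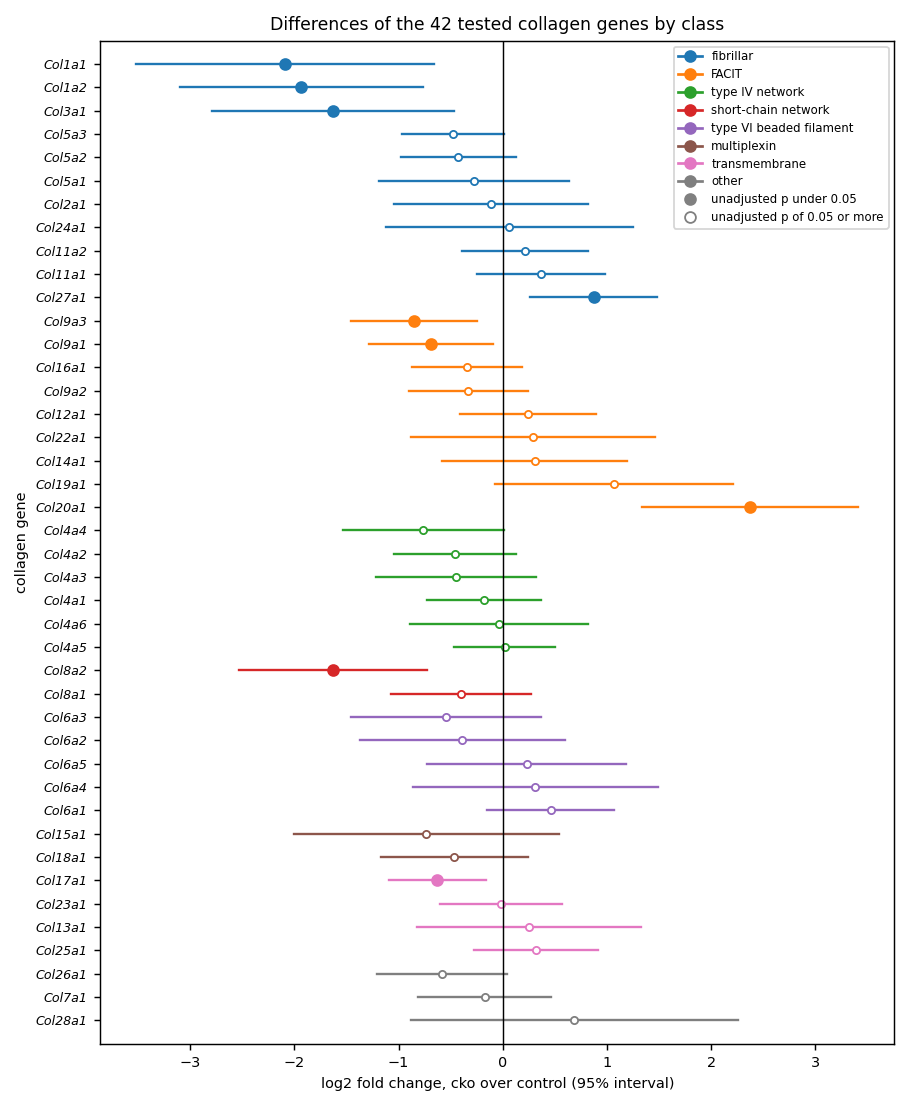
Log2 fold change (libraries labelled cko over controls) with its 95% interval from the edgeR fit for the 42 tested collagen genes, by class; filled points have an unadjusted p under 0.05. Col1a1, Col1a2, Col3a1 and Col8a2 lie farthest to the left and Col20a1 farthest to the right, and none passed after adjustment over all genes.

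The fibrillar genes with the lowest values relative to the controls were those of type I and type III collagen, the main fibrils of connective tissue. Col1a1 (chromosome 11, 94936224 to 94953042 in GRCm38, the build of all gene positions given, ENSMUSG00000001506), the alpha 1 chain of type I collagen, was at 1.89 and 3.39 CPM in libraries labelled cko a and b, against 2.67, 10.6 and 20.6 CPM in control a, b and c. Control a lay between the libraries labelled cko, so the groups overlapped. Its log2 fold change was -2.09 (SE 0.65, adjusted p = 0.433 by edgeR).

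Col1a2 (chromosome 6, 4504814 to 4541544, ENSMUSG00000029661), the alpha 2 chain of the same protein, was at 1.57 and 2.36 CPM in libraries labelled cko a and b, against 3.35, 5.51 and 13.9 CPM in the controls. Here both libraries labelled cko were below every control. The log2 fold change was -1.93 (SE 0.53, adjusted p = 0.409 by edgeR), and DESeq2 called it with an adjusted p of 0.0222. Col3a1 (chromosome 1, 45311538 to 45349706, ENSMUSG00000026043), the single chain of type III collagen, was at 1.61 and 2.36 CPM against 2.86, 4.22 and 11.5 CPM in the same order of libraries. Again the groups did not overlap, with a log2 fold change of -1.63 (SE 0.53, adjusted p = 0.433 by edgeR; DESeq2 adjusted p = 0.105).

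Control c was the highest library for all 3 of these genes and control a the lowest control. Without control c the log2 values were -1.34 for Col1a1, -1.18 for Col1a2 and -0.85 for Col3a1, and edgeR called 0 members of the family. Without control a they were -2.58 for Col1a1 and -2.31 for Col1a2, and edgeR then called Col1a1 (adjusted p = 0.0331). In CPM, Col1a1 was above Col1a2 in every library but control a. Per length, with merged exons of 6563 and 12426 bases, the ratio of Col1a1 to Col1a2 was 2.27 and 2.71 in libraries labelled cko a and b, against 1.51, 3.64 and 2.82 in control a, b and c.

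These 3 genes had log2 fold changes of the same sign, and the promoters of 2 of them, Col1a2 and Col3a1, are shown. For Col1a1 the sequences used here held no window. The windows come from RefSeq (GRCm38.p6), which gives 250 bases before and 50 bases from the annotated start, written 5′ to 3′ on the strand of the gene. Capitals mark matches to the TATA box TATAAA, the CCAAT box CCAAT and the GC box GGGCGG, searched on both strands. The Col1a2 window (chr6:4505368-4505667, plus strand) held 2 GC boxes and 2 CCAAT boxes, and the Col3a1 window (chr1:45311288-45311587, plus strand) held 1 TATA box and none of the others. The Col1a2 window begins after the gene start given above (4504814), so RefSeq and the gene positions place that start differently. An absent motif refers to the window shown only.
Col1a2: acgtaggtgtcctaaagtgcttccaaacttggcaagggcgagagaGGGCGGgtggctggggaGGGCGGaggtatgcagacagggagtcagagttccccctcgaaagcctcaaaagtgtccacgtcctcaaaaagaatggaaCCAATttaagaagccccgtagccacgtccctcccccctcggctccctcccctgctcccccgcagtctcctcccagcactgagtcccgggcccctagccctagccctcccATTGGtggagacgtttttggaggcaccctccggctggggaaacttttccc
Col3a1: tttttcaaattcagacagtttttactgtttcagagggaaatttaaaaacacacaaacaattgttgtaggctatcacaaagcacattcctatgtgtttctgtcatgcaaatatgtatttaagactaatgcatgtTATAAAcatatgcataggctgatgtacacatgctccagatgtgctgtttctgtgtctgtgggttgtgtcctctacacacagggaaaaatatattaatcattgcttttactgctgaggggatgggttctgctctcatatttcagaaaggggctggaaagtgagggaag
The base composition of the windows differed, with 61.0% G and C in Col1a2 and 37.7% in Col3a1. A match says only that these letters are present.

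Other fibrillar chains had smaller differences. Col5a1, Col5a2 and Col5a3, which help set the diameter of type I fibrils, had log2 fold changes of -0.28, -0.43 and -0.48. Col5a3 was at 11.5 and 11.6 CPM in libraries labelled cko a and b, against 16.8, 14.3 and 17.1 CPM in the controls, without overlap (SE 0.22, adjusted p = 0.464 by edgeR). Col5a2, which lies tail to tail with Col3a1 on chromosome 1 at a distance of 24614 bases, was at 4.72 and 4.48 CPM against 6.74, 5.87 and 5.92 CPM. Its groups too did not overlap, but its log2 fold change of -0.43 was smaller than the -1.63 of its neighbour.

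Col2a1 (chromosome 15, 97975602 to 98004695, ENSMUSG00000022483), the type II chain of cartilage and vitreous, differed more within the libraries labelled cko than between the groups. It was at 51.4 CPM in cko a and 190 CPM in cko b, against 121, 174 and 98.3 CPM in control a, b and c. The libraries labelled cko held both the lowest and the highest value. The log2 fold change was -0.12, with a 95% interval from -1.05 to 0.81.

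The partners of type II collagen in its fibril, Col11a1 and Col11a2, had log2 fold changes of 0.37 (SE 0.28) and 0.21 (SE 0.27). Col27a1 (chromosome 4, 63214004 to 63334991, ENSMUSG00000045672), a fibrillar chain of developing cartilage, was at 5.12 and 6.38 CPM in libraries labelled cko a and b, against 2.93, 3.72 and 2.74 CPM in the controls. Both libraries labelled cko were above every control, with a log2 fold change of 0.87 (SE 0.28, adjusted p = 0.433 by edgeR; DESeq2 adjusted p = 0.285). The 11th fibrillar gene, Col24a1, was at 0.433 and 0.529 CPM against 0.267 to 0.707 CPM.

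Col20a1 (chromosome 2, 180986535 to 181018363, ENSMUSG00000016356), a FACIT collagen, had the largest positive difference in the family. It was at 9.41 and 26.4 CPM in libraries labelled cko a and b, against 3.24, 5.41 and 1.63 CPM in control a, b and c. In counts these were 239 and 749 reads against 85, 151 and 37. Its exons share 1.54% of their bases with an overlapping gene on the same strand. The groups did not overlap, although cko b was 2.81 times cko a. The log2 fold change was 2.38 (SE 0.47, a 5.19-fold difference; edgeR adjusted p = 0.166), with a 95% interval from 1.34 to 3.41.

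EdgeR did not call Col20a1 over all genes in the fit described, and the call depended on the setting. DESeq2 gave an adjusted p of 9.26e-05. EdgeR called it without control b (log2 2.87, adjusted p = 0.0242) and, in a fit added after the data were seen, with a trend on GC content and transcript length removed (log2 2.41, adjusted p = 0.0332). With cko b left out, so that cko a alone stood for its group and was assumed to vary as the controls do, the log2 value was 1.45 (adjusted p = 0.251 by edgeR).

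The promoter of Col20a1 is shown beside that of Col8a2, as the members with the largest positive difference and the smallest unadjusted p among the lower ones. None of the 3 motifs was found in the Col20a1 window (chr2:180986285-180986584, plus strand), and the Col8a2 window (chr4:126286544-126286843, plus strand) held 4 GC boxes, of which 2 overlap.
Col20a1: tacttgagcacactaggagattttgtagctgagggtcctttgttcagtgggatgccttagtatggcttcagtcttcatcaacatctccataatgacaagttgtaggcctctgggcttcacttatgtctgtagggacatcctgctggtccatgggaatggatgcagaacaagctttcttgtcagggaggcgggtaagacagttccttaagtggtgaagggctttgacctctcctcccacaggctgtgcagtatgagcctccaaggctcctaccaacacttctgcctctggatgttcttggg
Col8a2: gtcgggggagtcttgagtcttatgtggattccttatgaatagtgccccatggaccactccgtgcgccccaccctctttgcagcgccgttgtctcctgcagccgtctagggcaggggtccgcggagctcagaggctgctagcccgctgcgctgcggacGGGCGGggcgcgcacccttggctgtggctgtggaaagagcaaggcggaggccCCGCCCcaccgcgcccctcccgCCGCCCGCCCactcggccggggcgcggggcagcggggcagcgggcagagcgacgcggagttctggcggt
G and C made up 71.7% of the Col8a2 window.

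Among the other FACIT genes, both libraries labelled cko lay below every control for 2 of the 3 chains of type IX collagen, Col9a1 and Col9a3. This protein decorates type II fibrils in cartilage and vitreous and is built of the products of Col9a1, Col9a2 and Col9a3. Col9a3 (chromosome 2, 180597790 to 180622189, ENSMUSG00000027570) was at 25.6 and 33.3 CPM in libraries labelled cko a and b, against 44.5, 41.5 and 73.9 CPM in the controls, with a log2 fold change of -0.85 (SE 0.28, adjusted p = 0.433 by edgeR). Its exons share 6.07% of their bases with Tcfl5 on the opposite strand, the largest share in the family, and no strand setting of the counting is given in the sources used here.

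Col9a1 (chromosome 1, 24177610 to 24252684, ENSMUSG00000026147) was at 54.0 and 56.6 CPM in libraries labelled cko a and b, against 85.4, 59.4 and 122 CPM in the controls. The groups of both genes did not overlap, and control c was the highest library in each. The log2 fold change of Col9a1 was -0.69 (SE 0.27, adjusted p = 0.443 by edgeR), and it was -0.41 without control c. Col9a2 was at 6.65 and 10.6 CPM against 10.9, 11.4 and 10.3 CPM, with overlapping groups and a log2 fold change of -0.33, which ranged from -0.71 to -0.035 when each library was left out in turn.

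The remaining FACIT genes were low. Col16a1 was at 7.83 and 7.23 CPM against 8.23 to 10.9 CPM, and Col12a1 had 117 and 105 reads against 68 to 124 reads. Col14a1, Col19a1 and Col22a1 each had 4 to 37 reads in every library, with log2 fold changes of 0.31, 1.07 and 0.29. Of these, Col19a1, which lies tail to tail with Col9a1 9205 bases away, was higher in both libraries labelled cko than in every control, at 13 and 18 reads against 4 to 9 reads.

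**Figure D3:**
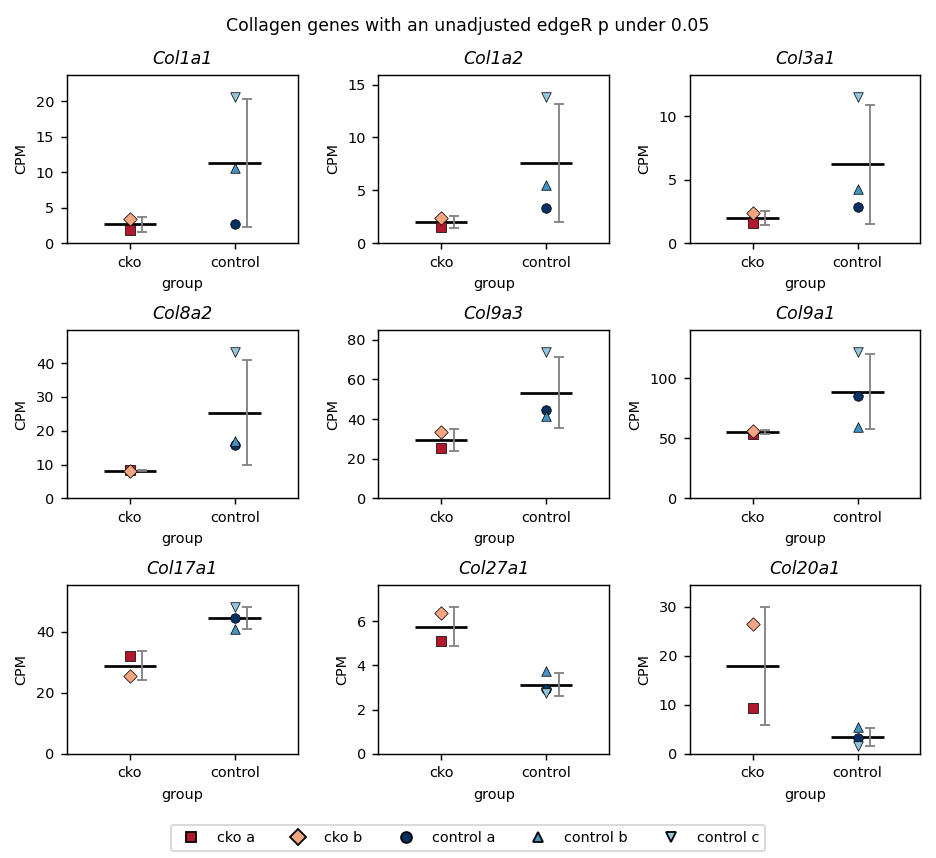
CPM in each library for the 9 collagen genes with an unadjusted edgeR p under 0.05; horizontal lines are group means and grey bars the SD (n = 2 libraries labelled cko, n = 3 controls). Control c is the highest library for Col1a1, Col1a2, Col3a1, Col8a2, Col9a1, Col9a3 and Col17a1, and the groups overlap only for Col1a1.

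Of the 2 chains of type VIII collagen, only Col8a2 had an unadjusted p under 0.05. This gene (chromosome 4, 126286793 to 126314330, ENSMUSG00000056174) was at 8.27 and 8.11 CPM in libraries labelled cko a and b, against 15.7, 17.0 and 43.3 CPM in control a, b and c. The libraries labelled cko were close together and below every control, with a log2 fold change of -1.63 (SE 0.41, a 3.09-fold difference; edgeR adjusted p = 0.377; DESeq2 adjusted p = 0.00716). Without control c its log2 value was -1.02 (edgeR adjusted p = 0.553).

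Col8a1 (chromosome 16, 57624258 to 57754737, ENSMUSG00000068196) was at 2.96 and 2.68 CPM per kb in libraries labelled cko a and b, against 2.36, 3.58 and 5.23 CPM per kb in the controls, and its groups overlapped. Its log2 fold change was -0.40 (SE 0.30, adjusted p = 0.611 by edgeR). Per length, with merged exons of 7833 and 4489 bases, the ratio of Col8a1 to Col8a2 was 1.6 and 1.49 in libraries labelled cko a and b, against 0.673, 0.943 and 0.542 in the controls. On that scale Col8a1 exceeded Col8a2 only in the libraries labelled cko. In CPM, however, Col8a1 was above Col8a2 in every library but control c. The lengths scale the ratio of all libraries alike, so they set which chain appears higher but not the order of the libraries. For 9 such ratios between chains of one protein an exact two-sided permutation test was run. This one reached 0.2, the smallest p that 2 against 3 libraries can give, as did Col4a1 to Col4a2 and Col6a1 to Col6a2, and after adjustment over the 9 the lowest value was 0.6.

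No type IV gene reached an unadjusted p under 0.05. The chains of type IV collagen, the network of basement membranes, are encoded in 3 head-to-head pairs, and all 6 genes were tested. Col4a1 was at 14.4 and 21.3 CPM in libraries labelled cko a and b, against 22.9, 17.5 and 20.5 CPM in the controls, a log2 fold change of -0.18 with a 95% interval from -0.73 to 0.36. Col4a2, its partner in the common heterotrimer, was at 10.7 and 18.9 CPM against 21.4, 19.2 and 20.5 CPM, a log2 fold change of -0.46 (SE 0.27).

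These 2 genes share 1 promoter region on chromosome 8, where their annotated transcripts overlap by 22 bases. The 78 bases that belong to both RefSeq windows (chr8:11312777-11312854, plus strand, which is the strand of Col4a2) are shown because both genes start there.
Col4a1 and Col4a2: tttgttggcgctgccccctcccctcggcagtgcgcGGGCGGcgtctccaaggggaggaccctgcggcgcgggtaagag
This stretch held 1 GC box, and the joint window of 522 bases held 3 GC boxes, 2 CCAAT boxes and 0 TATA boxes.

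Col4a3 and Col4a4, whose starts lie 71 bases apart on chromosome 1, encode chains of specialised basement membranes such as that of the kidney glomerulus. They were at 5.31 and 5.36 CPM (Col4a3) and at 3.31 and 4.69 CPM (Col4a4) in the libraries labelled cko, against 4.23 to 10.7 and 4.69 to 9.94 CPM in the controls. Their log2 fold changes were -0.45 (SE 0.35) and -0.76 (SE 0.35). Col4a5, the X-linked partner of these chains, was at 13.0 and 14.8 CPM against 13.1, 15.0 and 13.1 CPM, a log2 fold change of 0.02 with a 95% interval from -0.47 to 0.50. Its neighbour Col4a6 had 38 and 62 reads against 30 to 65 reads.

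Col18a1 and Col15a1, the multiplexins of vessel and epithelial basement membranes, had their lowest value in the library labelled cko a. Col18a1 was at 13.9 and 31.2 CPM in libraries labelled cko a and b, against 27.2, 28.5 and 37.9 CPM in the controls (log2 fold change -0.46, SE 0.32). Col15a1 had 4 and 23 reads in libraries labelled cko a and b, against 20, 22 and 21 reads. The controls of Col15a1 were thus almost level, while the libraries labelled cko differed 5.15-fold in CPM.

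Of the type VI genes, Col6a1 was at 24.4 and 43.2 CPM in libraries labelled cko a and b, against 24.3, 29.7 and 19.8 CPM in the controls (log2 fold change 0.46, SE 0.28). Col6a2, which encodes the second chain of the same protein on chromosome 10, was at 1.34 and 5.08 CPM against 3.96, 3.76 and 4.95 CPM. Per length, Col6a1 was 34.7 and 16.2 times Col6a2 in the libraries labelled cko and 7.59 to 15.0 times in the controls. Col6a3, Col6a4 and Col6a5 were between 0.619 and 3.67 CPM in every library, with log2 fold changes of -0.55, 0.31 and 0.23. Col6a6 had 8 and 9 reads in the libraries labelled cko against 4 to 8 reads and was not tested.

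Of the membrane-spanning collagens, Col17a1 (chromosome 19, 47646344 to 47692094, ENSMUSG00000025064) was at 32.2 and 25.4 CPM in libraries labelled cko a and b, against 44.6, 40.9 and 48.1 CPM in the controls. The groups did not overlap, and the log2 fold change was -0.63 (SE 0.21, adjusted p = 0.433 by edgeR; DESeq2 adjusted p = 0.253). Its values varied less between controls than those of the other 6 lower members with an unadjusted p under 0.05, and the log2 value ranged from -0.81 to -0.47 over the fits that left out 1 library. Col23a1 was at 24.7 and 45.8 CPM against 36.5, 39.2 and 31.3 CPM (log2 fold change -0.02, 95% interval -0.60 to 0.57).

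Col25a1, known as the precursor of a component of amyloid plaques, was at 4.05 and 5.40 CPM in the libraries labelled cko against 3.62 to 4.05 CPM (log2 fold change 0.32, SE 0.27). Col13a1 had 25 and 12 reads against 13 to 18 reads. The last 3 genes belong to none of these classes. Col26a1 was at 2.68 and 3.10 CPM in the libraries labelled cko against 3.90 to 5.03 CPM, without overlap (log2 fold change -0.58, SE 0.28). Col7a1, of the anchoring fibrils of skin, was at 3.07 and 2.57 CPM against 2.78 to 3.39 CPM. Col28a1 had 11 and 12 reads against 1 to 11 reads, and Col10a1, of the type VIII class by structure, had 4 and 3 reads against 2 to 5 reads.

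The libraries labelled cko differed from each other across much of the family. Of the 42 tested members, 33 were higher in cko b than in cko a, 78.6% against 46.6% of all genes tested. In cko b 17 members were at least 1.5 times their level in cko a, 40.5% against 17.6% of all genes, while the opposite held for 1 member, Col13a1 (2.38% against 6.39%). The ratio was largest for Col15a1, followed by Col6a2 (3.79), Col2a1 (3.70), Col5a1 (3.28) and Col20a1 (2.81). The library labelled cko a was the lowest of all 5 for 20 members, 47.6% against 23.2% of all genes, and control c the highest for 16, 38.1% against 29.3%.

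The family median accordingly turned on these libraries. It was -0.46 without the library labelled cko b, with 13 members lower at an unadjusted p under 0.05 (31% of the members against 9.1% of all genes in that fit). It was 0.036 without the library labelled cko a, with 3 members lower (7.14% against 3.96%). The medians over all genes in these fits were -0.03 and -0.01. Collagen transcripts were also rich in G and C, with a median of 55.4% against 49.7% over all genes tested, and 24 of the 42 members lay in the highest of 4 equal GC classes of all genes. Over all genes of that class the median log2 fold change (libraries labelled cko over controls) was -0.22, against 0.08 in the lowest class. The median log2 ratio of cko b to cko a over all genes was 0.24 in the highest class and -0.23 in the lowest. The members of the highest class had a median of 0.62. With the trend on GC content and length removed, the family median was -0.11, and the log2 values of Col1a1, Col1a2, Col3a1 and Col8a2 were -2.05, -1.96, -1.78 and -1.44. The part of GC content in these values was not tested.

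**Figure D4:**
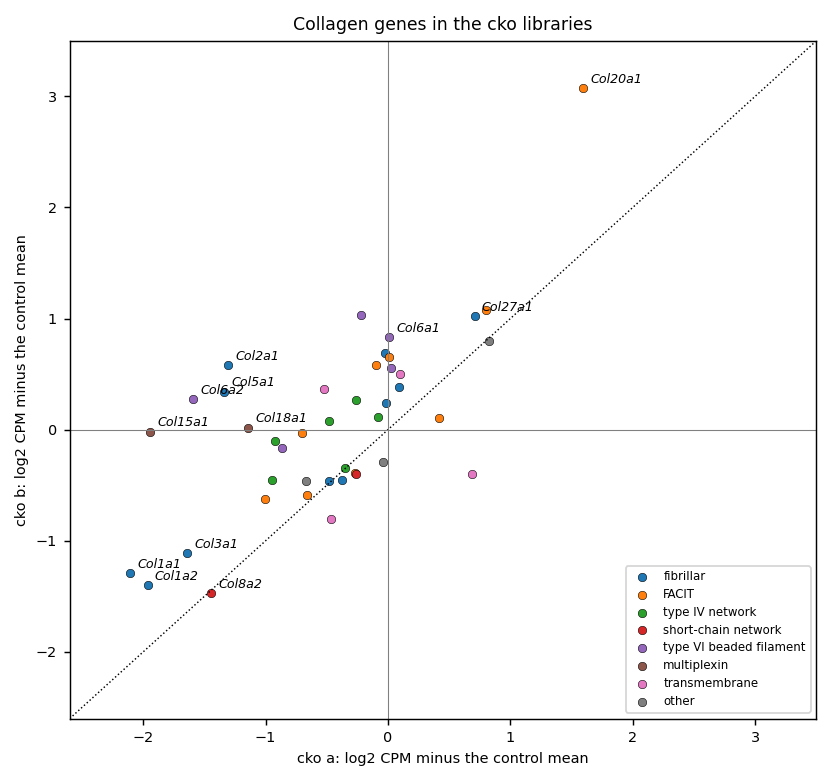
Log2 CPM minus the control mean in the library labelled cko a (x axis) and in cko b (y axis) for the 42 tested collagen genes, coloured by class; the dotted line marks equal values. Most points lie above the line, Col1a1, Col1a2, Col3a1 and Col8a2 are low in both libraries, and Col2a1, Col5a1, Col6a2 and Col15a1 are low in cko a only.

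Over the promoters of the family, 35 of the 44 members had a RefSeq window, 38 windows in all. The GC box was present in 23 of these, 60.5% against 35.7% of the 32851 windows in the RefSeq table. The CCAAT box was in 34.2% against 37.4% and the TATA box in 13.2% against 13.6%. The median share of G and C was 59.8% in the windows of members and 52.7% in all windows.

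The genes that make, cross-link, bind and break down collagen were examined as lists beside the family. EdgeR called 0 members of any of these lists over all genes tested. Their counts at an unadjusted p under 0.05 stand against 5.45% higher and 5.36% lower over all genes tested, a share that 1 gene already reaches in each list. Of 18 tested genes for biosynthesis and secretion, 1 was higher and 1 lower at an unadjusted p under 0.05, and the median log2 fold change was 0.06. Mia3, which loads procollagen into transport carriers, was at 116 and 97.8 CPM in the libraries labelled cko against 45.6 to 79.5 CPM (log2 0.80, SE 0.24, adjusted p = 0.430 by edgeR). Ppib, a prolyl isomerase of collagen folding, was at 124 and 102 CPM against 143 to 261 CPM (log2 -0.76, SE 0.26). The most abundant of the list, P4hb, a subunit of prolyl 4-hydroxylase, had a log2 value of 0.14.

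Of 10 tested genes for propeptide removal and cross-linking (median 0.17), the lysyl oxidase relative Loxl1 was at 3.86 and 5.15 CPM in the libraries labelled cko against 6.84 to 12.5 CPM (log2 -1.03, SE 0.31, adjusted p = 0.430 by edgeR). The procollagen protease Adamts3 had a log2 value of 0.56, and Pxdn, which cross-links type IV collagen, 0.26. Of 9 tested receptors (median 0.22), Mrc2, the endocytic collagen receptor, was at 3.70 and 7.55 CPM against 1.49 to 2.11 CPM (log2 1.58, SE 0.35, adjusted p = 0.286 by edgeR). The integrin chain Itga2 had a log2 value of 0.71 and Itgb1 0.00. At an unadjusted p under 0.05 there were 1 higher and 1 lower gene in the cross-linking list, and 2 higher and 0 lower receptors.

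Of 14 tested basement membrane partners (median 0.15, 1 higher and 1 lower at an unadjusted p under 0.05), Nid2, a linker of laminin and type IV collagen, was at 6.06 and 5.85 CPM in the libraries labelled cko against 9.95 to 19.9 CPM (log2 -1.18, SE 0.32, adjusted p = 0.409 by edgeR). Lama3 had a log2 value of 0.86 and Agrn, the most abundant, 0.15. Of 7 tested small leucine-rich proteoglycans, which bind fibrils, 6 had a value below 0 (median -0.57), and Ogn and Fmod had an unadjusted p under 0.05 with log2 values of -1.64 and -1.15. The most abundant, Prelp, had 216 and 855 reads in libraries labelled cko a and b against 305 to 526 reads.

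Of 7 tested metalloproteinases and inhibitors (median -0.14, 1 higher and 0 lower), Mmp2, a gelatinase, was at 23.3 and 41.9 CPM in the libraries labelled cko against 12.4 to 18.5 CPM (log2 1.09, SE 0.28, adjusted p = 0.381 by edgeR). Timp3 and Timp2 had log2 values of -0.39 and -0.26.

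Markers of tissues around the retina were set beside the members with the lowest values. The 6 lens markers, led by Cryaa, summed to 56.4 and 17.4 CPM in libraries labelled cko a and b, against 726, 590 and 1301 CPM in control a, b and c. EdgeR called 4 of the 5 tested lower, against 0.0939% of all genes tested, while Lim2 was at 0 in 4 libraries. Pigment epithelium markers (6, led by Pmel) summed to 145 and 126 CPM against 191, 204 and 455 CPM, skeletal muscle markers (6, led by Acta1) to 7.2 and 6.35 CPM against 8.88, 15.5 and 38.8 CPM, and blood markers (6, led by Hba-a1) to 127 and 40.9 CPM against 170, 397 and 463 CPM. In the sums of each of these 4 lists control c was the highest library. Both libraries labelled cko were below every control in these sums, as they were for Col1a2, Col3a1 and Col8a2. Among single tested markers, they were below every control for 5 of 5 in lens and 2 of 6 in pigment epithelium. The same held for 5 of 6 in skeletal muscle and 5 of 6 in blood, against 13.7% of all genes tested. Myh3 of the skeletal muscle list had a log2 value of 0.14. The part of these tissues in the collagen values was not tested.

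The summed level of markers of fibril-making cells overlapped between the groups. The 9 fibroblast or mesenchyme markers summed to 105 and 121 CPM in libraries labelled cko a and b, against 109, 102 and 137 CPM in the controls. Pdgfra, which retinal astrocytes also express, gave most of that sum. Of the 7 tested, 6 had a log2 fold change below 0 (median -0.50), and control c was the highest library for 6, as it was for Col1a1, Col1a2 and Col3a1. Foxd1 was at 1.34 and 1.87 CPM against 2.76 to 4.99 CPM, without overlap (log2 -1.14, SE 0.37, adjusted p = 0.433 by edgeR), while Dcn was at 0.315 and 0.494 CPM against 0.152 to 0.839 CPM. Twist1 had 1 and 0 reads against 8, 5 and 8 reads, also without overlap, and Lum 0 and 2 reads against 1 to 4 reads. Pericyte and smooth muscle markers (8, led by Rgs5) summed to 85.5 and 57.7 CPM against 65.6 to 92.7 CPM. Corneal and surface epithelium markers were lower in sum without overlap. These markers (5, led by Krt15) summed to 6.89 and 6.70 CPM against 7.81 to 9.01 CPM. Krt15 itself overlapped, at 4.53 and 3.60 CPM against 3.28 to 4.33 CPM (log2 0.06), as did Krt12, while Epcam was lower without overlap. Krt5 and Krt14 were at 0 in both libraries labelled cko, against 6, 6 and 10 reads and 3, 2 and 6 reads in control a, b and c.

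Of the 6 cartilage and sclera markers 5 were at 0 in at least 1 library, and only Sox9, which Muller glia also express, was tested, at 6.97 and 23.1 CPM in libraries labelled cko a and b against 12.5 to 20.1 CPM. It was lowest in cko a, as was Col2a1. Endothelial markers (6, led by Kdr) summed to 258 and 337 CPM against 84.9 to 281 CPM. Kdr alone gave most of that sum in every library, at 233 and 317 CPM against 66.9 to 260 CPM. Of the 6, 4 had a log2 fold change above 0 and 2 below. Microglia markers (5, led by Csf1r) summed to 34.0 and 56.6 CPM against 37.3 to 48.2 CPM. Retinal astrocyte markers (4, led by Pdgfra) summed to 114 and 101 CPM against 89.3 to 118 CPM, Muller glia markers (5, led by Apoe) to 1234 and 1189 CPM against 942 to 1289 CPM, and markers of retinal neurons (8, led by Sag) to 11317 and 8148 CPM against 10011 to 13207 CPM.

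**Figure D5:**
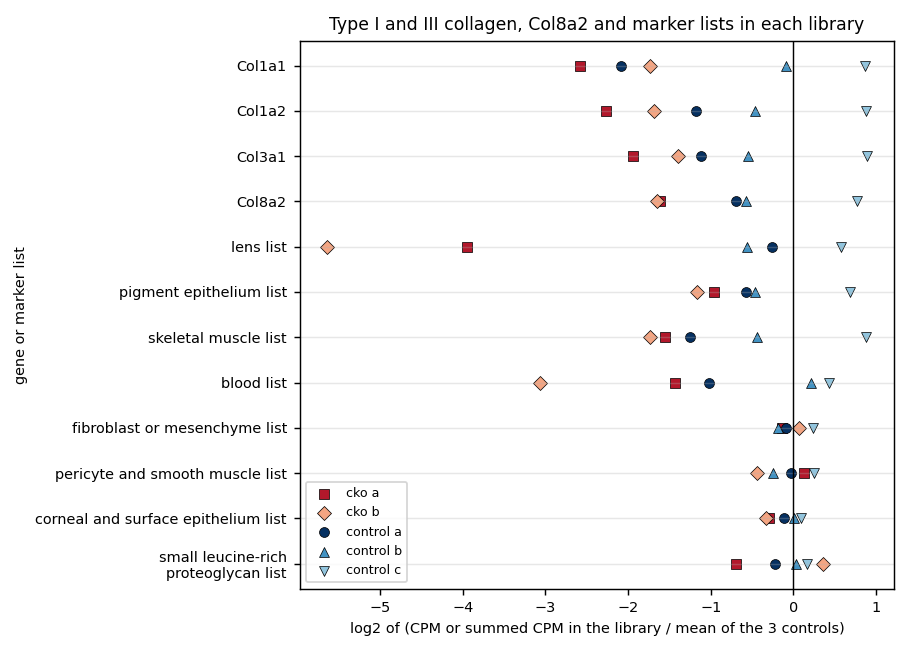
Log2 of the CPM of Col1a1, Col1a2, Col3a1 and Col8a2, and of the summed CPM of marker lists, relative to the mean of the 3 controls in each library. Control c is highest for the 4 collagen genes and for the lens, pigment epithelium, skeletal muscle and blood lists, and both libraries labelled cko lie below every control there except for Col1a1.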

How the data were processed

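Unnormalized read counts by Ensembl gene ID were deposited by the authors as a single table. CASAVA, HISAT2, featureCounts and the build mm10 are named in the submitters' processing notes; their versions, the annotation release and the strand and multi-mapping settings were not given in the sources used here. The labels' protocols name TRIzol for extraction and NEBNext Ultra for library preparation. Every column was used, and the titles gave the groups. Symbols came from a table of gene names, biotypes, positions and merged exon lengths from GENCODE M21 (GRCm38, the assembly that mm10 denotes). Exons of 13 members overlap another gene. The test was that of edgeR 4.0.16 under R 4.3.3 (filterByExpr with a minimum count of 10 and a minimum total of 15, TMM, quasi-likelihood F test, no covariate), with Benjamini-Hochberg adjustment over 17039 genes and a threshold of 0.05. Standard errors are the size of a log2 fold change over the square root of F; the biological coefficient of variation was 0.216. DESeq2 1.42.0 and limma-voom (limma 3.58.1) were alternatives. Chi-square comparisons of the libraries gave at least 26.7 per degree of freedom, so none was a duplicate. The edgeR, DESeq2 and voom steps were tested on simulated data. Members and lists were chosen with earlier results of these data known. Members at a mean of at least 10 CPM or an unadjusted p under 0.05 were described in every library; of each list of collagen partners the 2 genes with the smallest p and the most abundant one were named, and of each marker list the most abundant one. Other genes named were picked with their values in view. With 2 against 3 libraries, the depth limits what can be detected in members of few reads.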

Additional observations from a re-analysis of the deposited data

How the results depend on the processing

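The count of members called over all genes (0) was 6 with no low-count filter, 3 with DESeq2, 0 to 1 when each library was left out in turn, 1 with the letter of the titles as a replicate block (Col20a1, adjusted p = 0.00579) and 1 after removal of a trend on GC and length, a fit added after seeing the data. All genes called (17) were 11 with library totals, 262 with no filter, 85 with DESeq2, 39 with the replicate block and 10 to 38 with 1 library left out. The letters are only shared names, with 2 pairs at most. The members' median (-0.23) was -0.34 with a stricter filter (2 libraries or more at 1 CPM or above), -0.33 with limma-voom, -0.11 with the trend removed and -0.46 to 0.036 with 1 library left out; the cause was not tested. Of 623 values of single members over 15 alternatives, 574 kept direction and call, 13 were newly called and 36 changed sign, 26 of them with 1 library left out. With 1 library left out the log2 ranges that crossed 0 were Col22a1 -0.12 to 0.71, Col24a1 -0.24 to 0.44, Col4a5 -0.084 to 0.11, Col23a1 -0.53 to 0.36, Col2a1 -1.35 to 0.54, Col4a6 -0.34 to 0.21, Col6a5 -0.080 to 0.47, Col6a4 -0.48 to 0.93, Col13a1 -0.47 to 0.74, Col6a2 -1.65 to 0.27, Col18a1 -1.16 to 0.0019, Col5a1 -1.38 to 0.33, Col4a1 -0.49 to 0.070, Col6a1 -0.0083 to 0.81, Col14a1 -0.11 to 0.62 and Col11a1 -0.041 to 0.68. Some ranges came close to 0 without crossing it, among them Col4a2 -0.93 to -0.11, Col8a1 -0.67 to -0.096 and Col11a2 0.0032 to 0.35. Signs also changed for Col23a1 (0.056) and Col4a6 (0.032) with library totals, for Col4a6 with limma-voom (0.014), with the replicate block for Col6a5 (-0.074), Col6a4 (-0.12), Col4a6 (0.13) and Col4a5 (-0.014), and with the trend removed for Col24a1 (-0.12), Col7a1 (0.046) and Col4a5 (-0.10). Members of few reads, such as Col28a1 and Col10a1, are limited by depth.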
